A study of Oryctolagus cuniculus with 9 samples.

Results

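GREM1, FRZB and FZD9 are 3 of the 14870 genes listed for this series, and their rows were taken by gene symbol. GREM1 (ENSOCUG00000005596) encodes gremlin 1, a secreted protein that binds BMP ligands and keeps them from their receptors. FRZB (ENSOCUG00000010371) encodes a secreted frizzled-related protein that binds Wnt ligands outside the cell. FZD9 (ENSOCUG00000011195) encodes a frizzled receptor of the Wnt pathway. They were chosen by their normalized reads in defects against healthy cartilage, so these levels are given as a description without a p-value, and only CLCS treated against untreated defects was tested. Calls of these genes against healthy cartilage, given further on, describe the fits only.

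BMP ligands drive chondrocyte maturation and bone formation through SMAD proteins, and secreted antagonists such as gremlin 1 hold this signal down. Wnt ligands act through frizzled receptors and beta-catenin and also promote hypertrophy, the step at which a chondrocyte enlarges and its matrix is readied for bone. GREM1 and FRZB have been described as natural brakes on hypertrophy in articular cartilage.

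The study followed repair of a surgical defect in the knee cartilage of rabbits, and RNA sequencing was performed on 9 libraries, 3 each from healthy cartilage, untreated defects and CLCS treated defects. All animals were New Zealand white rabbits of 4 to 5 months at selection, and tissue was taken 12 weeks after surgery. CLCS is a scaffold of collagen functionalised with chondroitin sulfate, implanted as a piece of 5 mm diameter and 1 mm height in a critical size defect of the trochlear groove of the right knee. The defect of the left knee was left empty, so scaffold and side of the body cannot be told apart between the defects. The study's scheme places the healthy tissue at the condyle, so joint site and injury cannot be told apart in comparisons with healthy cartilage. The labels do not say which libraries come from the same or separate animals, and p-values therefore measure only the spread between these samples.

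The libraries held 724986 to 1226408 reads on genes, and 1 gene took between 1.49% and 49.4% of them. The study reports far more sequenced reads and aligned pairs for each library, so the reads counted on genes are a small part of these. The cause of this gap was not tested. ACTB and GAPDH, which are abundant in most tissues, had 10 to 128 and 15 to 91 reads, so genes of modest level rest on few reads. ND6 alone held 86.0% to 94.4% of the reads on 13 mitochondrial protein genes. Which strand of each gene was counted was not tested, so the reads given below may not all be of its own transcript. Chondrocyte markers were present in all 9 libraries. The summed normalized reads of the 8 chondrocyte markers measured of 10 listed ranged from 7727 to 10388 in healthy libraries, from 674 to 9696 in untreated libraries and from 9762 to 27248 in CLCS libraries, with MATN3 at 3 reads or fewer everywhere. Most of this sum was COL2A1, and the other 7 markers summed to 853 to 1778, 216 to 880 and 790 to 1714. The third untreated library stood apart in type II collagen, with 505 reads of COL2A1 against 4061 to 20508 in the others. The 7 fibroblast markers summed to 474 to 693 in healthy, 1701 to 4798 in untreated and 2378 to 3882 in CLCS treated cartilage, and the 6 osteoblast markers to 275 to 707, 805 to 2652 and 1711 to 2131. Macrophage markers summed to 23.5 to 33.9, 40.0 to 55.3 and 23.7 to 48.6 in the same order, and endothelial markers to 14.5 or less in every library. In such bulk tissue, fewer cells of a type and less RNA per cell cannot be told apart, and the part of tissue makeup in the levels below was not tested.

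GREM1 was low in every injured sample, with or without the scaffold. Healthy libraries held 13, 18 and 16 GREM1 reads, against 3, 2 and 0 in untreated defects and 2, 2 and 2 in CLCS treated defects. Divided by the size factor of each library, the mean level was 15.0 ± 3.04 normalized reads for healthy cartilage, 1.45 ± 1.27 for untreated defects and 2.17 ± 0.277 for CLCS treated defects (SD, n = 3 each). All 6 defect libraries lay below all 3 healthy libraries, and both kinds of defect overlapped.

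Summed over libraries, GREM1 was 10.1-fold lower in untreated defects than in healthy cartilage, with an exact 95% interval of 4.02 to 32.4 that covers counting error only. In CLCS treated defects it was 6.92-fold lower, with a counting interval of 2.95 to 19.8. On the log2(normalized reads + 1) scale, which understates changes of low genes, the difference was -2.87 (SE 0.50) in untreated and -2.32 (SE 0.27) in CLCS treated defects. Both comparisons use the same healthy libraries and are not independent.

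FZD9 showed the same separation with a wider spread among defects. Its reads were 12, 16 and 21 in healthy, 2, 0 and 1 in untreated and 0, 5 and 2 in CLCS treated cartilage. The mean level was 15.5 ± 3.89 normalized reads for healthy cartilage, 0.827 ± 0.791 for untreated defects and 2.47 ± 2.46 for CLCS treated defects (SD, n = 3 each). No defect library reached the lowest healthy library, while untreated and CLCS treated defects overlapped, each with 1 library at 0.

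FZD9 was 17.5-fold lower in untreated defects by summed level (counting interval 5.64 to 87.6) and 6.19-fold lower in CLCS treated defects (2.79 to 16.2). The log2 difference from healthy cartilage was -3.25 (SE 0.42) in untreated and -2.56 (SE 0.62) in CLCS treated defects. All 3 untreated libraries had 3 reads or fewer, so the first fold rests on 3 reads in total and its size is poorly fixed.

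FRZB differed from the other 2 genes, because 1 healthy library set its healthy level. Its reads were 50, 4 and 4 in healthy, 6, 3 and 0 in untreated and 2, 10 and 7 in CLCS treated cartilage. The mean level was 18.3 ± 25.0 normalized reads for healthy cartilage, 2.58 ± 2.39 for untreated defects and 6.87 ± 4.20 for CLCS treated defects (SD, n = 3 each). The first healthy library held 86.2% of all healthy FRZB reads, and the groups overlapped in every comparison.

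By summed level FRZB was 6.89-fold lower in untreated defects and 2.70-fold lower in CLCS treated defects, differences smaller than the spread between healthy replicates. The log2 difference was -1.87 (SE 0.93) in untreated and -0.60 (SE 0.87) in CLCS treated defects, and without the first healthy library it became -0.77 and 0.51. Without that library the healthy mean was 3.84 normalized reads (range 3.61 to 4.06, n = 2), within the range of 0 to 9.84 of the 6 defect libraries, whose mean was 4.72. The direction for CLCS treated defects thus turned when 1 library was left out.

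**Figure D1:**
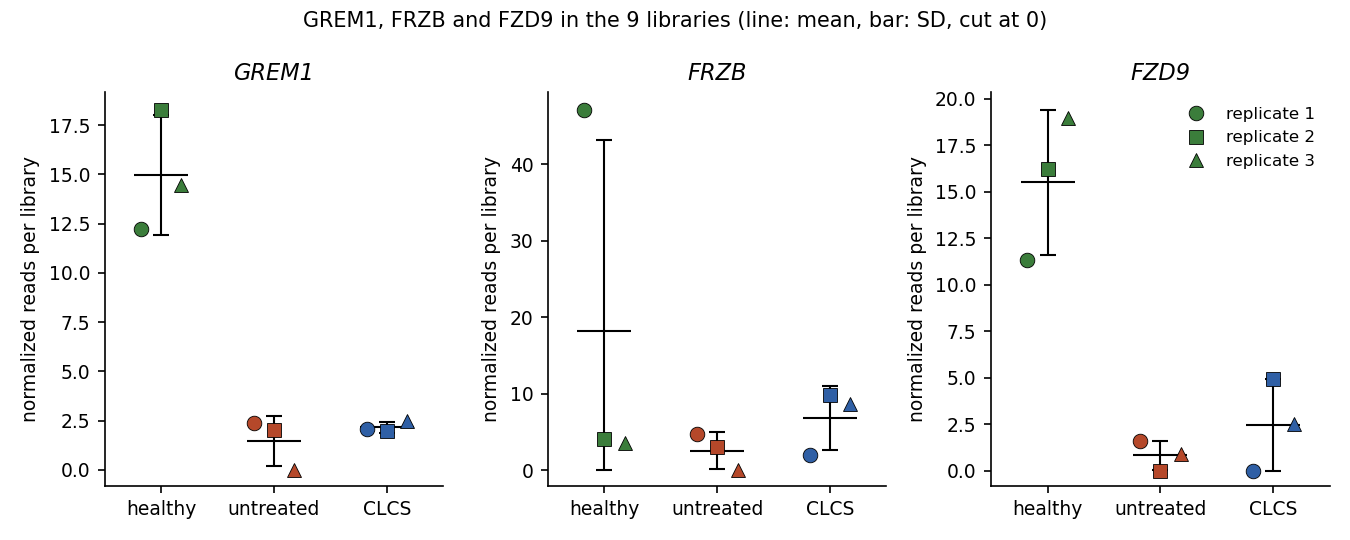
Normalized reads of GREM1, FRZB and FZD9 (y axis, linear) in each healthy, untreated and CLCS library, with marker shapes for replicate numbers, a line for the mean and a bar for the SD cut at 0 (n = 3). Healthy points of GREM1 and FZD9 lie above all 6 defect points, whereas the first healthy library alone, at 47.1, lifts FRZB.

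A filter on low reads left 3496 genes in untreated against healthy samples and 3294 in CLCS treated against healthy samples. GREM1 and FZD9 passed it through their healthy libraries alone, and FRZB passed it in neither. At an adjusted p under 0.05 in limma, GREM1 was called lower in both comparisons and FZD9 in untreated but not in CLCS treated defects. Over all genes tested, 2.55% were called in untreated defects (1.2% lower) and 3.16% in CLCS treated defects (1.03% lower). A call in 1 comparison alone does not show that the FZD9 effects differ, and the test of CLCS treated against untreated defects, given further on, did not pass. Groups did not overlap, with the defects lower, for 10.7% of genes in untreated and 12% in CLCS treated samples, and all 6 defect libraries lay below all 3 healthy ones for 5.75% of 3812 genes. Since the choice of genes used these contrasts, nothing is read from their calls.

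The calls were sensitive to single libraries. Their counts describe the fits and lend the differences no support, because the genes were chosen on these contrasts. GREM1 was called in untreated defects in 0 of 6 fits without 1 library, with log2 differences from -3.19 to -2.31, and in CLCS treated defects in 5 of 6, from -2.45 to -2.18, the exception being the fit without the first CLCS library. FZD9 was called in untreated defects in 0 of 6 such fits, from -3.55 to -2.87, while only 2 to 7 genes of all tested were called in them. In CLCS treated defects the FZD9 difference ranged from -3.11 to -1.83, and with replicate numbers as a block in the fit it was called.

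CLCS treated against untreated defects is the comparison of defects with and without the scaffold, which also differ in the side of the body. The mean of each of the 3 genes was higher in CLCS treated defects, but the libraries of both groups overlapped and none of the differences passed the test. GREM1 differed by 0.55 on the log2 scale (SE 0.52, 95% confidence interval -0.60 to 1.70), with an adjusted p of 0.905 in limma over all genes. FRZB differed by 1.27 (SE 0.71, interval -0.30 to 2.85; adjusted p = 0.905 in limma). FZD9 differed by 0.69 (SE 0.66, interval -0.77 to 2.15), also with an adjusted p of 0.905 in limma. These fits took no account of replicate number. With that number as a block, the SE was 0.51 for GREM1, 0.77 for FRZB and 0.74 for FZD9. The adjusted p was then 0.852 in limma for each gene.

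These intervals still hold a change of more than 1 log2 unit upward for each gene, so a difference of that size is not excluded. Exact two-sided permutation tests over the 3 against 3 samples gave p = 0.5 for GREM1, 0.3 for FRZB and 0.5 for FZD9, all 0.5 after Benjamini-Hochberg adjustment over 3 tests, where the design can reach no less than 0.1. Exchanging labels only within libraries of equal number, the exact two-sided permutation p was 1, 0.5 and 0.75, with 0.25 the smallest possible. Among libraries of equal number, CLCS was higher in 1 of 3 for GREM1 and in 2 of 3 each for FRZB and FZD9. Without the third untreated library, which had 0 reads of GREM1 and FRZB and the fewest of COL2A1, the GREM1 difference was -0.0044 in place of 0.55.

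The ratio of summed FRZB levels, CLCS treated over untreated, was 2.55 with a counting interval of 1.10 to 6.41. This interval excludes a ratio of 1 for the reads counted, but the 2 groups of libraries overlapped. The same ratio was 1.45 (0.369 to 6.01) for GREM1 and 2.82 (0.644 to 16.9) for FZD9. No gene of 3275 was called between CLCS treated and untreated defects in limma (0%), where 95 had an unadjusted p under 0.05, and edgeR and DESeq2 also called 0, with 88 and 76 at that level. The 2 kinds of defect did not overlap for 4.52% of these 3275 genes with CLCS lower, and for 3.82% with CLCS higher. GREM1, FRZB and FZD9 failed the filter on low reads here and could not be among these genes, and their own groups overlapped.

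**Figure D2:**
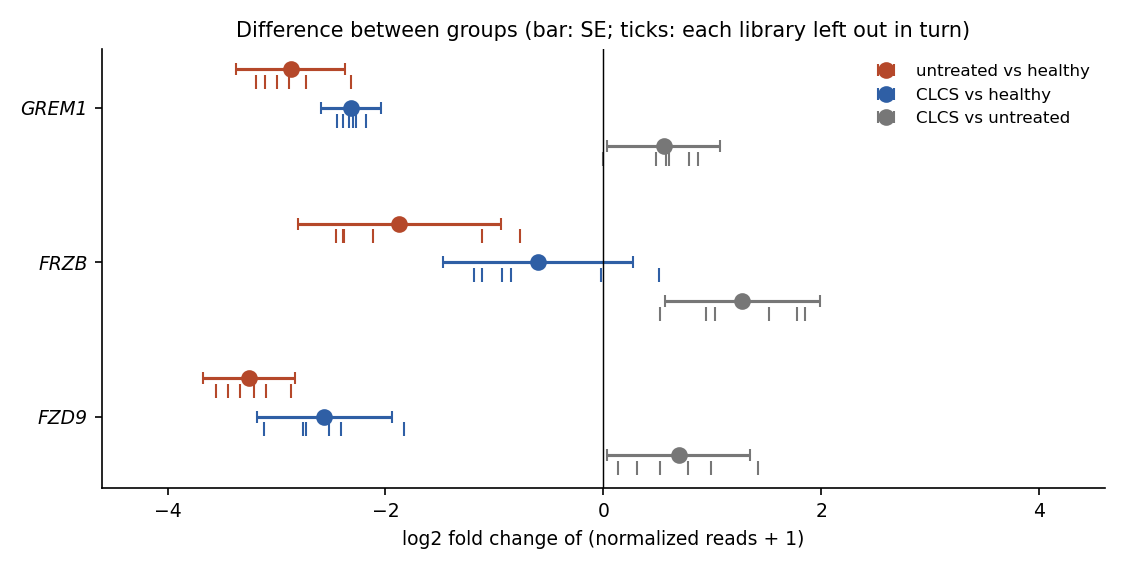
Log2 fold change of normalized reads plus 1 (x axis) for the 3 genes in each comparison, with points for all 6 libraries, bars for the SE and ticks for fits without 1 library. GREM1 and FZD9 stay below 0 against healthy cartilage in every fit, FRZB in CLCS treated defects reaches 0.51, and the CLCS against untreated differences lie between -0.0044 and 1.85 in the fits without 1 library.

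The rest of both pathways was followed in lists of BMP and Wnt genes arranged by role. Of 160 genes listed with GREM1, FRZB and FZD9 included, 115 were in the data, 49 of these had 3 reads or fewer in every library, and only ACVRL1, BMP6 and CSNK1D reached 100 reads in any. The other members of the BMP list numbered 67, of which 52 were measured. Enough reads for a test were found for 5 in untreated against healthy samples, for 6 in CLCS treated against healthy and for 6 between the defects. None of them was called by limma in any comparison, with 2, 1 and 0 at an unadjusted p under 0.05. Their median log2 differences were -0.11, 0.05 and 0.20, beside -0.02, -0.08 and -0.00 over all genes tested.

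Among BMP ligands, BMP6, which signals through SMAD proteins in cartilage and bone, was the most deeply measured. It had 2184 to 3919 reads in healthy, 4265 to 9413 in untreated and 5358 to 8122 in CLCS treated cartilage. All defect libraries were thus above the healthy ones. BMP6 overlaps a pseudogene in the RefSeq annotation, and whether all these reads come from BMP6 was not tested. The log2 difference was 1.07 (SE 0.42, adjusted p = 0.262 in limma) in untreated and 1.41 (SE 0.40, adjusted p = 0.117 in limma) in CLCS treated defects, neither of which passed. DESeq2 called BMP6 in CLCS treated defects. BMP3, a ligand that opposes other BMPs, had 6 to 15 reads in healthy and 7 to 21 in defect libraries, and differed by 0.43 (SE 0.43) in CLCS treated defects.

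Receptors gave no call. ACVRL1, a type I receptor known from endothelial cells, differed from the healthy level by -0.11 in both kinds of defect (SE 0.37 for untreated and 0.33 for CLCS treated). ACVR2A, an activin and BMP type II receptor, differed by -1.17 (SE 0.73) and -0.70 (SE 0.57). BMPR1A, the main type I BMP receptor of chondrocytes, was tested between the defects alone, where the difference was 0.16 (SE 0.52).

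Of the secreted BMP inhibitors and modulators other than GREM1, 14 of 19 were measured and only FSTL1, a follistatin-like glycoprotein, could be tested. It differed by 0.15 (SE 0.60) in untreated and 0.20 (SE 0.36) in CLCS treated defects. CHRD and FST, classical BMP and activin antagonists, had 3 reads or fewer in every library. Noggin was not analysed here. DLX5, a BMP target and transcription factor of chondrocyte and osteoblast maturation, differed by -1.29 (SE 0.40, adjusted p = 0.152 in limma) and -1.06 (SE 0.51, adjusted p = 0.344 in limma).

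The Wnt list held 90 other genes, 60 of them measured, and 9, 8 and 9 were tested in the 3 comparisons. No gene was called, with 1, 1 and 0 at an unadjusted p under 0.05. Median log2 differences were 0.18 in untreated and -0.16 in CLCS treated defects against healthy cartilage, and 0.10 between the defects.

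Among Wnt ligands and agonists, RSPO3, an R-spondin that amplifies Wnt signals at the receptor, had 9 to 54 reads in healthy cartilage and 46 to 56 in untreated and 30 to 38 in CLCS treated defects. It differed by 1.15 (SE 0.56, adjusted p = 0.368 in limma) and 0.78 (SE 0.55, adjusted p = 0.519 in limma). WNT2B differed by -0.21 (SE 0.39) and 0.01 (SE 0.28), and WNT2 by 0.18 (SE 0.54) in untreated defects.

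FZD1 was the one frizzled receptor other than FZD9 with enough reads for a test against healthy cartilage, in CLCS treated defects. It had 19, 2 and 12 reads in healthy, 10, 2 and 6 in untreated and 2, 12 and 4 in CLCS treated libraries, and differed by -0.51 (SE 0.76). Its groups overlapped, whereas FZD9 was chosen for its low level in defects. FZD1 and FZD9 were not tested against each other. Among frizzled receptors with too few reads for a test, FZD2 had 13, 2 and 7 reads in healthy libraries. It had 2, 1 and 0 in untreated and 1, 2 and 2 in CLCS treated libraries. FZD7 also had a lower mean in both kinds of defect, FZD4 and FZD6 a higher one, and FZD3 and FZD5 showed no common direction.

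The secreted Wnt inhibitors other than FRZB varied strongly between libraries. SFRP4, of the same family as FRZB, had 24, 5 and 0 reads in healthy, 14, 12 and 40 in untreated and 7, 17 and 8 in CLCS treated libraries, and differed by 1.78 (SE 1.08) in untreated defects. SFRP5 differed by -0.79 (SE 0.60) and -0.93 (SE 0.75). WIF1, a cartilage inhibitor that binds Wnt ligands, had 37, 4 and 10 reads in healthy libraries and 3 to 32 in defects, and differed by -0.02 (SE 0.75) in CLCS treated defects. DKK1, the third secreted antagonist described with GREM1 and FRZB as a brake on hypertrophy, had 3 reads in the first untreated and the first CLCS library and 0 in the other 7.

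Within the cell, CSNK1D, a casein kinase that acts on several Wnt components, had 675 to 1224 reads in healthy cartilage, 88 to 369 in untreated and 117 to 474 in CLCS treated defects. All 6 defect libraries lay below the healthy ones, and both kinds of defect overlapped. The log2 difference of -2.52 (SE 0.59, adjusted p = 0.0783 in limma) in untreated and -2.09 (SE 0.61, adjusted p = 0.129 in limma) in CLCS treated defects did not pass, whereas DESeq2 and the fit with a replicate block called it in untreated defects. CSNK1D overlaps SLC16A3 in the RefSeq annotation, and whether reads were assigned by strand is not given in the sources used here. APC, a scaffold of the beta-catenin destruction complex, differed by -0.49 (SE 0.43) and -0.31 (SE 0.43), and GSK3A, a kinase of that complex, by 0.19 (SE 0.32) and 0.26 (SE 0.33). Of the Wnt targets, 7 of 12 were measured and 0 had enough reads.

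Of the 112 other BMP and Wnt list genes measured, 5 had all 6 defect libraries below all 3 healthy ones (4.46%, beside 2.87% of all genes listed), and 1 had them all above (BMP6, 0.893%, beside 3.01%). These were named after their values were seen. Beside CSNK1D they were BMPER, a secreted BMP modulator, LGR6, a receptor for R-spondins, SMAD5, a BMP signal transducer, and WNT11, a Wnt ligand. BMPER had 3, 6 and 5 reads in healthy libraries, 0, 1 and 0 in untreated and 0, 1 and 0 in CLCS treated libraries. LGR6 had 4, 4 and 4 reads in healthy libraries against 0 to 3 in defects. SMAD5 had 1, 2 and 2 reads in healthy libraries and 0 in all defects, and WNT11 had 1, 3 and 5 against 1 read in 1 defect library. None of these 4 had enough reads for a test.

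**Figure D3:**
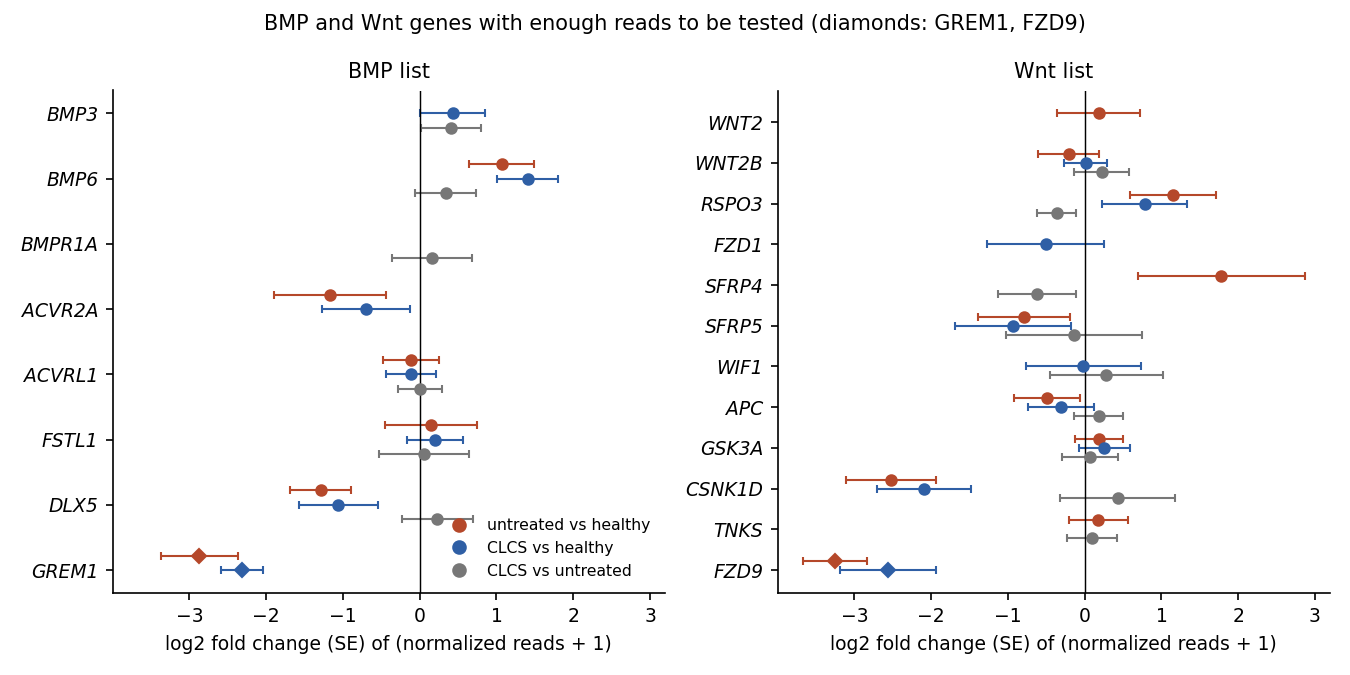
Log2 fold change of normalized reads plus 1 (x axis) with SE for every BMP and Wnt list gene that could be tested, in the comparisons where it could, with diamonds for GREM1 and FZD9. Apart from those, which were chosen for their low levels, CSNK1D at -2.52 lies lowest and SFRP4 at 1.78 highest.

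Hypertrophy genes were examined because GREM1 and FRZB are described as restraining this step. They were added after their values were seen, so their calls are a description, and a link to GREM1 or FRZB was not tested. Of 12 genes listed, 9 were measured and 6 tested. MMP13, the collagenase of hypertrophic chondrocytes, rose from 4 to 5 reads in healthy libraries to 71 to 128 in untreated defects (log2 difference 4.04, SE 0.32, adjusted p = 0.00513 in limma) and 28 to 50 in CLCS treated defects (2.95, SE 0.31, adjusted p = 0.0104 in limma). IBSP, a bone matrix sialoprotein, rose in CLCS treated defects by 2.46 (SE 0.40, adjusted p = 0.0277 in limma) and differed by 2.24 (SE 0.63, adjusted p = 0.125 in limma) in untreated defects. COL10A1, the collagen that defines hypertrophic cartilage, was not among the calls, with -0.66 (SE 0.44) and -0.53 (SE 0.64). Nor were SPP1, the matrix protein osteopontin, with 2.02 (SE 0.69, adjusted p = 0.191 in limma) and 1.93 (SE 0.71), ALPL, an alkaline phosphatase of mineralising tissue, with 0.43 (SE 0.67) and 1.04 (SE 0.42), and PTH1R, the receptor for parathyroid hormone, with -0.85 (SE 0.27, adjusted p = 0.168 in limma) and -0.40 (SE 0.28).

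The list thus had 1 gene called higher in untreated and 2 in CLCS treated defects, 0 lower, and 0 between the defects, where 1.34% and 2.13% of all genes were called higher than in healthy cartilage. Its median log2 difference was 1.23 in untreated and 1.48 in CLCS treated defects. IBSP, ALPL and SP7 are also osteoblast markers. Of 4 osteoblast markers tested 0 were called in untreated defects and 1, IBSP itself, in CLCS treated defects. Their median log2 difference was 1.56 in untreated and 1.79 in CLCS treated defects. Hypertrophic cartilage and bone as the source of the shared genes cannot be told apart.

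Over the 9 libraries, the genes whose log2 level followed GREM1 most closely were DDX17, an RNA helicase (Pearson r = 0.988), P2RX4, an ATP-gated channel (0.963), NUDT6 (0.951), COPB2, a coat protein of Golgi vesicles (0.951), and OGN, a small leucine-rich proteoglycan (0.944). Of 3117 genes compared, 35 had an r of 0.9 or more. The correlation of deviations from the group means, which removes the difference between groups, was 0.915 for DDX17, 0.852 for P2RX4 and 0.663 for OGN. OGN had 38 to 92 reads in healthy, 2 to 13 in untreated and 6 to 11 in CLCS treated libraries, and NUDT6 overlaps FGF2 in the RefSeq annotation. These are descriptions over 9 points in 3 groups that share library depth, and the difference between healthy and injured tissue enters each r.

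For FZD9 the closest genes were FAM151A (0.955), MYO18A, an unconventional myosin (0.947), UNC93A (0.934), AP5Z1, an adaptor protein subunit (0.929), and ADM, the vasoactive peptide adrenomedullin (0.918), and 16 of 3117 genes reached 0.9. FAM151A had 3026 to 4351 reads in healthy libraries and 717 to 1187 in defects. ADM had 17 to 44 reads in healthy, 5 to 7 in untreated and 4 to 12 in CLCS treated libraries. Their deviations from group means correlated with those of FZD9 at 0.829 and 0.706.

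FRZB had a different set, and 0 of 3118 genes reached 0.9. The closest were RPS12, a ribosomal protein (0.896), COL11A2, a cartilage collagen chain (0.881), C2orf40, known as ECRG4 (0.878), THBS4, a matrix thrombospondin (0.862), and CYTL1, a cytokine-like protein of chondrocytes (0.844). All 5 were highest in the first healthy library, as FRZB was, which follows from choosing them by their correlation with FRZB. C2orf40 had 348 reads in that library and 1 to 18 in the other 8, and CYTL1 had 317 against 8 to 61. The correlations of deviations from group means, 0.809 to 0.873, were close to the raw ones.

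Among themselves, GREM1 and FZD9 correlated at 0.827 over the 9 libraries, and their deviations from group means at -0.011. GREM1 with FRZB gave 0.540 and FRZB with FZD9 gave 0.482, with 0.349 and 0.161 for the deviations. GREM1 and FZD9 were both chosen for the difference between healthy and injured tissue, which enters the first of these values.

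**Figure D4:**
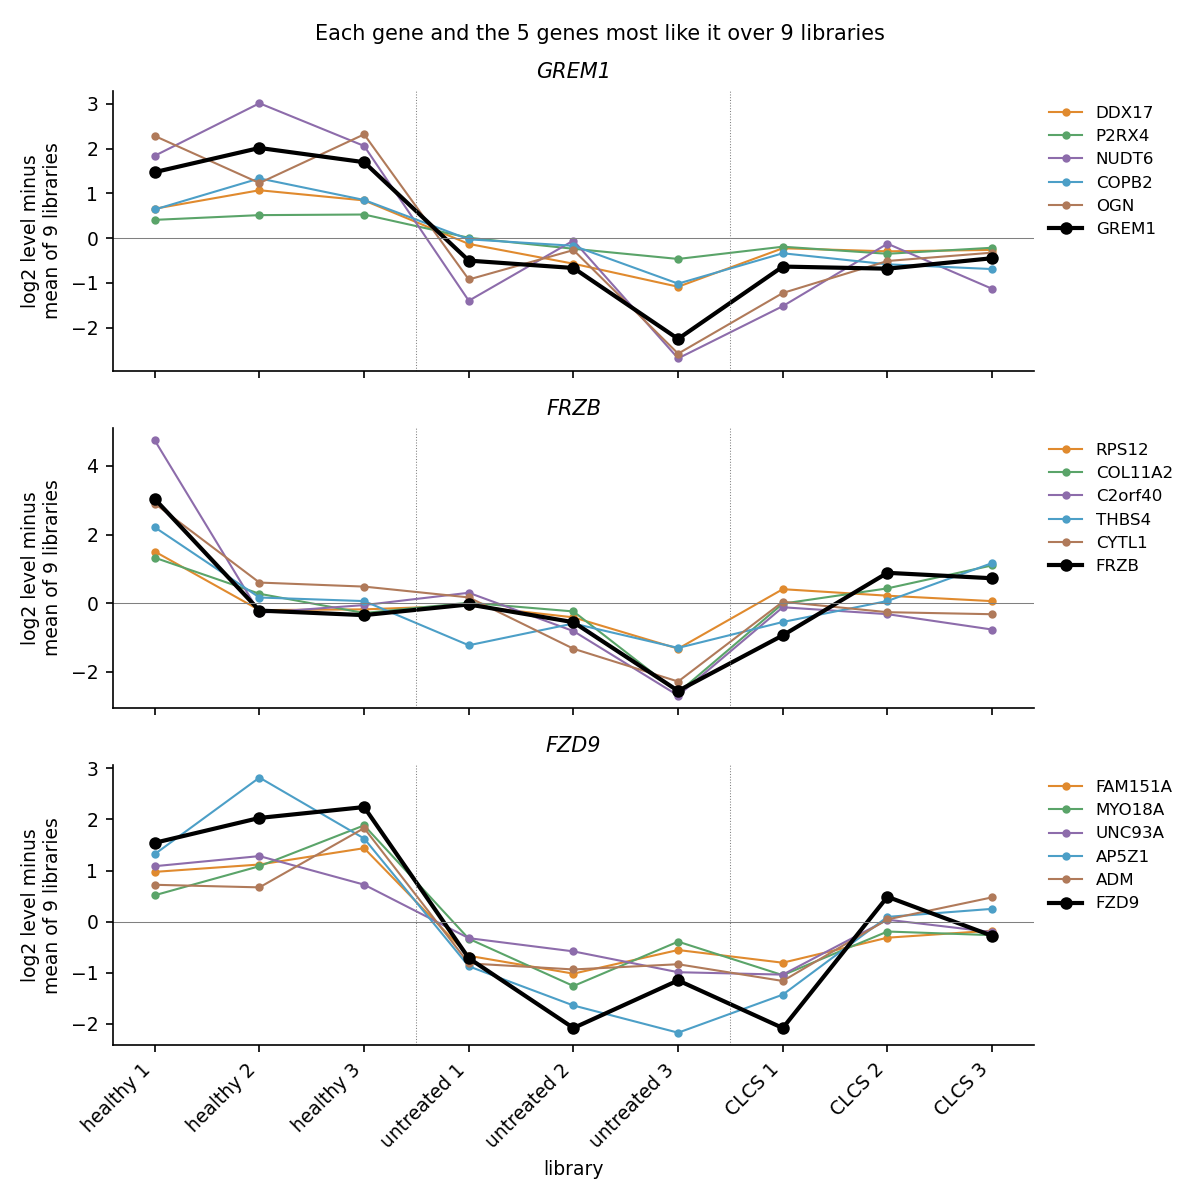
Log2 of normalized reads plus 1 minus the mean of the 9 libraries (y axis) for GREM1, FRZB and FZD9 in black and for the 5 genes most like each in colour, with lines only guiding the eye between libraries (x axis). The GREM1 and FZD9 panels step down from healthy to defect libraries, and the FRZB panel peaks in the first healthy library.

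No protein-coding gene overlaps any of the 3 in the RefSeq annotation of another rabbit assembly, used here for gene order only. GREM1 lies between FMN1, with 0 to 1 reads per library, and SCG5. FRZB lies next to NCKAP1, with 1 to 7 reads. FZD9 lies between BAZ1B and FKBP6, and BAZ1B had 15 to 37 reads in healthy, 7 to 18 in untreated and 8 to 17 in CLCS treated libraries. The range of BAZ1B reads was thus also lower in both kinds of defect, with overlap, while FZD9 was chosen for its low level in defects. Whether reads of BAZ1B enter the count of FZD9 was not tested.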

How the data were processed

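Polyadenylated RNA was made into TruSeq libraries, and TopHat and Bowtie placed the reads on oryCun2.0 before eXpress counted them per gene. For each gene the authors deposited a signal, its count divided by the DESeq2 size factor of the library. Tool versions and the strand setting are not given in the sources used here. Every deposited value was a whole multiple of 1 read (tolerance 0.001), so whole reads were recovered for 100% of values. The 3 healthy columns stand in both tables and entered each fit 1 time.

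The genes, lists and tests were chosen with earlier results of these data known. Values were tested with limma 3.58.1 in R 4.3.3 on log2(value + 1) in the 6 libraries of each comparison, after filterByExpr of edgeR 4.0.16, with Benjamini-Hochberg adjustment at 0.05. The scripts were tested on simulated data. A gene that failed the filter took its value, SE and p from the fit over every gene with a read, of 14300, 13856 and 14093 genes. This applied to FRZB everywhere and to GREM1 and FZD9 between defects. Summed levels were compared with exact binomial intervals. edgeR and DESeq2 1.42.0 on the recovered reads were alternatives.

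Named were, beside GREM1, FRZB and FZD9, list genes called in any comparison, up to 3 tested genes of highest mean level per role, the 5 genes most correlated with each of the 3, and their neighbours in RefSeq (mOryCun1.1). CHRD, FST and DKK1, the hypertrophy genes and overlaps of BMP6, CSNK1D and NUDT6 were added after their values were seen. Of all genes listed, 11076 carry a symbol. Deviations from group means of same-numbered libraries correlated at r = 0.258, 0.359 and 0.298 for CLCS treated and untreated. For CLCS treated and healthy they correlated at 0.279, 0.144 and 0.173. The values for untreated and healthy were 0.280, 0.120 and -0.064. The labels do not say whether equal numbers mark the same animal, so these values do not establish a pairing. The main fits therefore took none, and a replicate block was an alternative in every comparison. Printed values come from fits without the block unless the block is named.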

Additional observations from a re-analysis of the deposited data

How the results depend on the processing

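GREM1 and FZD9 lay below healthy cartilage under every alternative that gave a value, and a minimum mean of 10 reads left them without one. Both were chosen on these contrasts, so this and their calls below are a description and no support. Their log2 values moved by more than 1 SD of replicates with a pseudocount of 4, to -1.82 for GREM1 and -2.01 for FZD9 in untreated defects and -1.61 for GREM1 in CLCS treated defects. FZD9 in untreated defects was -2.69 on library totals without the 1 most abundant gene, -3.95 in edgeR and -4.13 in DESeq2. GREM1 in CLCS treated defects was -1.99 with TMM, -2.10 on library totals, -2.70 in edgeR and -2.77 in DESeq2. GREM1 was called in untreated defects in 6 of 10 other settings, not with a pseudocount of 0.5, without a filter, in edgeR or in limma-trend, and in CLCS treated defects in 9 of 10, not without a filter. In CLCS treated defects FZD9, not called with the main settings, was called in 4 of 10 others. FRZB was called in 1 of 11, edgeR in untreated defects.

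Genes called numbered 89 in untreated against healthy samples, 20 without a filter, 275 in DESeq2, 173 with all 9 libraries in 1 fit and 2 to 7 without 1 library. In CLCS treated against healthy samples they numbered 104, 13 without a filter, 243 in DESeq2 and 0 to 81 without 1 library, the lowest without the first CLCS library. CSNK1D was the 1 Wnt list gene called in untreated defects by DESeq2 and with the replicate block, and in CLCS treated defects without the third CLCS library (0 to 1 without 1 library). BMP6 was the 1 BMP list gene called by DESeq2 in CLCS treated defects. GREM1 between defects ranged from -0.0044 without the third untreated library, a change of sign, to 0.87 without the first. The causes were not tested.

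With the replicate block, 94 and 125 genes were called against healthy samples, 0 between defects, and the adjusted p of GREM1, FRZB and FZD9 between defects was 0.852 in limma. Over all alternatives it ranged from 0.771 to 1 for GREM1, 0.771 to 0.998 for FRZB and 0.818 to 0.998 for FZD9. With only 0 to 21 reads of GREM1 and FZD9 counted per library, the size of each fold is poorly fixed.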
